A study of Mus musculus with 6 samples.

Results

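This account covers 10 mouse genes of the transforming growth factor β (TGF-β) pathway: the ligand genes Tgfb1, Tgfb2 and Tgfb3, the receptor genes Tgfbr1, Tgfbr2 and Tgfbr3, and the SMAD genes Smad2, Smad3, Smad4 and Smad7. The genes were taken by symbol as the core of the pathway, with no threshold on a measured value but with earlier results of these data known, and all 10 were among the 16880 genes listed in the deposited table. By the sample labels, RNA was sequenced from ATDC5 cells, a mouse chondrogenic cell line grown in medium with serum. The methods of the study speak of chondrocytes for this experiment and do not name the line, so the cells are called here as the labels give them. In 3 libraries the cells had received interleukin-1β (IL-1β), an inflammatory cytokine, at 10 ng/mL, and in the other 3 they had received the same dose of IL-1β plus NP-G2-044, an inhibitor of the actin-bundling protein FSCN1, at 10 μM, for 1 day according to the methods. The sample titles name the inhibitor NP-G2-044 and the treatment field names it NP-G2-047. Both groups carried IL-1β and came from 1 cell line, and cells without IL-1β were not analysed here, so every comparison below is between IL-1β with and without the inhibitor.

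TGF-β ligands are secreted in a latent complex with their own propeptide and with latent TGF-β-binding proteins, and proteases, integrins and thrombospondins release them. A free ligand is presented by the co-receptor TGFBR3 (betaglycan) or binds TGFBR2 directly, and TGFBR2 then activates TGFBR1, also called ALK5. ALK5 phosphorylates SMAD2 and SMAD3, which enter the nucleus with SMAD4, whereas SMAD7 blocks ALK5 and is itself induced by the signal. In cartilage the pathway is known for matrix synthesis and for holding back terminal differentiation. A second type I receptor, ALK1, sends the signal to SMAD1, SMAD5 and SMAD9. The study looked into how FSCN1 acts in chondrocyte dedifferentiation, and this RNA comparison bears on the genes of the pathway, not on phosphorylation or protein.

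The total count per library ranged from 16615824 to 16878164 with IL-1β and from 17529844 to 17735860 with IL-1β plus NP-G2-044, and 14155 to 14383 genes had at least 1 read. Every inhibitor library was somewhat deeper than every IL-1β library. Genes with a read went the other way, at 14311 to 14383 with IL-1β and 14155 to 14205 with the inhibitor. The cell type label was checked against 17 chondrocyte markers, of which 12 were listed, and their summed level was 22.7 to 23.8 TPM (reads scaled by gene length and then to the same total in every library) with IL-1β and 17.9 to 18.8 TPM with the inhibitor. Col2a1, the main cartilage collagen, was at 0.217 TPM and 0.0400 TPM on average, and Matn1 had no read in any library. The Col2a1 values rest on 32 reads in all with IL-1β and 6 with the inhibitor. The study lists Col2a1 and Sox9 among the genes raised by the inhibitor in its RNA-seq. In these libraries Col2a1 was lower with the inhibitor and Sox9 higher. Of the transcription factor genes of the chondrocyte lineage, Sox9 was at 6.44 and 11.4 TPM and Sox5 at 10.3 and 2.27 TPM. Sox6 was low in both groups, at 0.183 and 0.193 TPM, and the groups overlapped. Col11a2 was at 5.01 and 3.43 TPM, and Col9a3 at 0.667 and 0.690 TPM with overlapping groups. Acan, Col9a1, Col9a2, Hapln1 and Cnmd were not analysed here. Of 5 listed macrophage markers only Cd68 passed the filter on low counts, and the summed list went from 11.3 to 14.4 TPM with IL-1β to 124 to 135 TPM with the inhibitor, nearly all of it Cd68, while the pan-leukocyte gene Ptprc had no read. The 8 fibroblast markers summed to 1144 to 1192 TPM and 361 to 377 TPM, most of it Col1a2 at 1098 and 330.8 TPM, while Pdgfra was at 2.36 and 8.69 TPM and Thy1 at 0. In the same order, the 4 listed osteoblast markers summed to 108 to 124 TPM and 18.5 to 20.8 TPM. Most of the fall was in Spp1, at 90.8 and 6.76 TPM. Runx2 was at 20.8 and 12.4 TPM, Sp7 at 1.76 and 0.360 TPM and Alpl at 1.85 and 0.0800 TPM. Endothelial, epithelial and muscle markers summed to at most 0.55 TPM in any library. These levels moved with the same contrast as the TGF-β genes and their part in the results was not tested. In RNA from whole cultures, fewer cells of a type and less RNA per cell cannot be told apart.

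All 10 TGF-β genes passed the filter and all 10 differed between the groups at an adjusted p below 0.05 by edgeR's quasi-likelihood test, 8 of them lower and 2 higher with the inhibitor. That has to be read against a contrast in which 80% of the 11983 genes tested passed the same threshold, 40.2% higher and 39.8% lower. The 3 libraries of one group did not overlap with those of the other in TPM for any of the 10 genes, and the same held for 79.4% of all genes tested, or 80.8% when reads were scaled by the library total alone. All 3 ligands, all 3 receptors, Smad3 and Smad7 were lower, and Smad2 and Smad4 were higher. The median log2 fold change of the 10 genes, here and below the level with IL-1β plus NP-G2-044 over that with IL-1β, was -0.41, and that of all genes tested was 0.00. The median absolute log2 change was 0.50 for the 10 genes and 0.39 for all genes. Only Tgfb3 also passed the fold cutoff of the study, an absolute log2 change above 1, which together with the adjusted p was met by 16.6% of all genes tested. With 3 libraries a group, the exact permutation test of any single value cannot give a p below 0.1, so the calls rest on the model fitted across all genes.

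**Figure D1:**
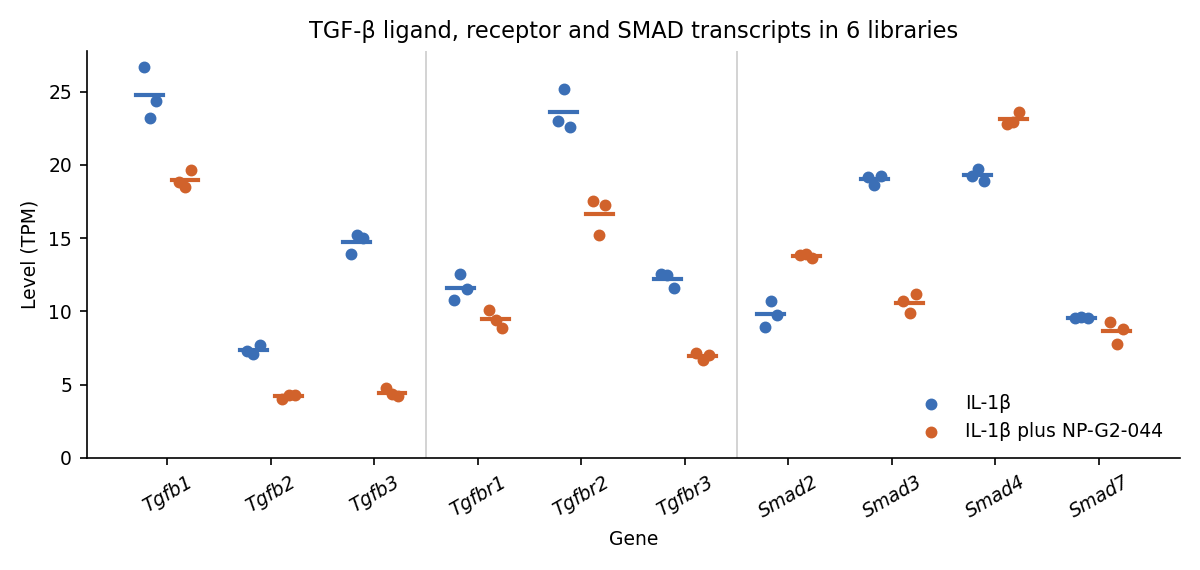
Level of each gene in TPM in each of the 6 libraries, with IL-1β in blue and IL-1β plus NP-G2-044 in orange; horizontal bars mark the group means and the vertical axis starts at 0. Tgfb1 is the highest ligand in both groups at 24.8 TPM and 19.0 TPM, Tgfb3 shows the widest gap, and only Smad2 and Smad4 have the orange points above the blue ones.

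The RefSeq promoter table, on build GRCm38.p6, held windows for Tgfb1 and Tgfb2 among the ligands, and the 250 bases before each transcription start are shown because these genes code for related ligands, changed to different degrees and have windows of different composition. The windows lie at chr7:25686752-25687001 on the plus strand and chr1:186705990-186706239 on the minus strand, and capitals mark every match to 6 short motifs.
Tgfb1: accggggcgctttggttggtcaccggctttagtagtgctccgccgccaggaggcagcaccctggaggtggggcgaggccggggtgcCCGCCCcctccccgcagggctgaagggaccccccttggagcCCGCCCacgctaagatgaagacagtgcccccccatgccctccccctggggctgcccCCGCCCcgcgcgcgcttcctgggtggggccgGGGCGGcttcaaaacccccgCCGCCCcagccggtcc
Tgfb2: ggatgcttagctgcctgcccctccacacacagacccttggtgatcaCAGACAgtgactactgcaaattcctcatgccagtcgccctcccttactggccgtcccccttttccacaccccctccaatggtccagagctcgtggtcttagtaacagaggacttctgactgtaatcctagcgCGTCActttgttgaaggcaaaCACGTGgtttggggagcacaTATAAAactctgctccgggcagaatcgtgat
The motifs searched were the GC box GGGCGG, the cyclic AMP response element core TGACG, the E-box CACGTG, the AP-1 site TGAGTCA and the SMAD-associated CAGACA on both strands, and the TATA box TATAAA on the forward strand. GC made up 75.2% of the Tgfb1 window, which held 5 matches to GGGCGG and none to the other motifs. GC made up 53.6% of the Tgfb2 window, which held 1 match each to the TATA box, the cyclic AMP element, the E-box and the SMAD-associated motif, and none to the GC box or the AP-1 site. Of the 32851 mouse promoter windows of this length, 32.7% held the GC box, 7.59% the TATA box, 17.8% the cyclic AMP element, 6.02% the E-box, 17.1% the SMAD-associated motif and 4.46% the AP-1 site, and the median GC content was 52.4%. The matches describe the letters of these windows only. Windows for Tgfbr1, Tgfbr2 and Smad3 were also in the table, where those of Tgfbr1 held 2 and 0 matches to GGGCGG, that of Tgfbr2 none and that of Smad3 2.

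Tgfb3 (gene 21809, chromosome 12, 86056745 to 86079041, minus strand, GRCm38) codes for TGF-β3, the isoform known for its use in inducing cartilage from progenitor cells. Its level was 13.94, 15.20 and 15.03 TPM in the libraries with IL-1β and 4.75, 4.39 and 4.22 TPM in those with the inhibitor. The groups were far apart, with the highest inhibitor library well under the lowest IL-1β library. The means were 14.7 ± 0.684 TPM and 4.45 ± 0.271 TPM (n = 3 per group, SD), a log2 fold change of -1.69 (SE 0.0768, 95% confidence interval -1.85 to -1.54, edgeR adjusted p = 1.54e-26), or 3.23-fold lower. A larger absolute change was seen in 7.12% of the genes tested. The values rest on 1457 reads in all with IL-1β and 474 with the inhibitor. Over the 6 libraries, the 3 tested genes whose pattern was nearest to that of Tgfb3 were Sdc4, a cell surface heparan sulfate proteoglycan, Ncapd2, a condensin subunit, and Dpy19l1, a mannosyltransferase family gene. Their mean absolute differences from Tgfb3 in centred log2 CPM (reads scaled to library size) were 0.0234, 0.0327 and 0.0329, with log2 fold changes of -1.69, -1.69 and -1.64.

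Tgfb2 (gene 21808, chromosome 1, 186622792 to 186705989, minus strand) codes for TGF-β2, the isoform that depends most on betaglycan for receptor binding. It was the ligand with the lowest level when the cells had IL-1β alone, at 7.27, 7.11 and 7.72 TPM, against 4.05, 4.32 and 4.32 TPM with the inhibitor. The groups did not overlap. The means of 7.37 ± 0.316 TPM and 4.23 ± 0.156 TPM (n = 3 per group, SD) gave a log2 fold change of -0.77 (SE 0.0738, 95% confidence interval -0.91 to -0.62, edgeR adjusted p = 1.29e-13), or 1.70-fold lower.

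Tgfb1 (gene 21803, chromosome 7, 25687002 to 25705077, plus strand) codes for TGF-β1, the most widely expressed isoform and the one tied to fibrosis and to joint disease. It was read at 26.67, 23.24 and 24.35 TPM with IL-1β and at 18.84, 18.48 and 19.64 TPM with the inhibitor. Every inhibitor library was below every IL-1β library, and the IL-1β libraries were the more spread. The means were 24.8 ± 1.75 TPM and 19.0 ± 0.594 TPM (n = 3 per group, SD), a log2 fold change of -0.35 (SE 0.0637, 95% confidence interval -0.48 to -0.22, edgeR adjusted p = 2.09e-06), or 1.28-fold lower. The intervals of the log2 changes did not overlap between Tgfb1 and Tgfb2 or between Tgfb2 and Tgfb3.

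Because the ligands fell by different amounts, the makeup of the ligand transcripts differed between the groups. Summed over Tgfb1, Tgfb2 and Tgfb3, ligand transcripts were 46.8 ± 1.19 TPM with IL-1β and 27.7 ± 0.496 TPM with the inhibitor (n = 3 per group, SD). Tgfb3 took 29.1%, 33.4% and 31.9% of that sum with IL-1β and 17.2%, 16.1% and 15.0% with the inhibitor. Tgfb1 took 52.8% ± 2.53 and 68.6% ± 0.947, a gain of 15.8 percentage points. The Tgfb1 and Tgfb3 shares did not overlap between the groups, and each difference had the smallest two-sided exact permutation p that the design allows, 0.1 (0.125 after Benjamini-Hochberg adjustment over 10 shares and sums). The Tgfb2 share was 15.7% ± 0.612 and 15.3% ± 0.619, with overlapping groups (exact permutation p = 0.5, adjusted 0.556), and the sign of this small difference turned when read counts were used in place of TPM.

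**Figure D2:**
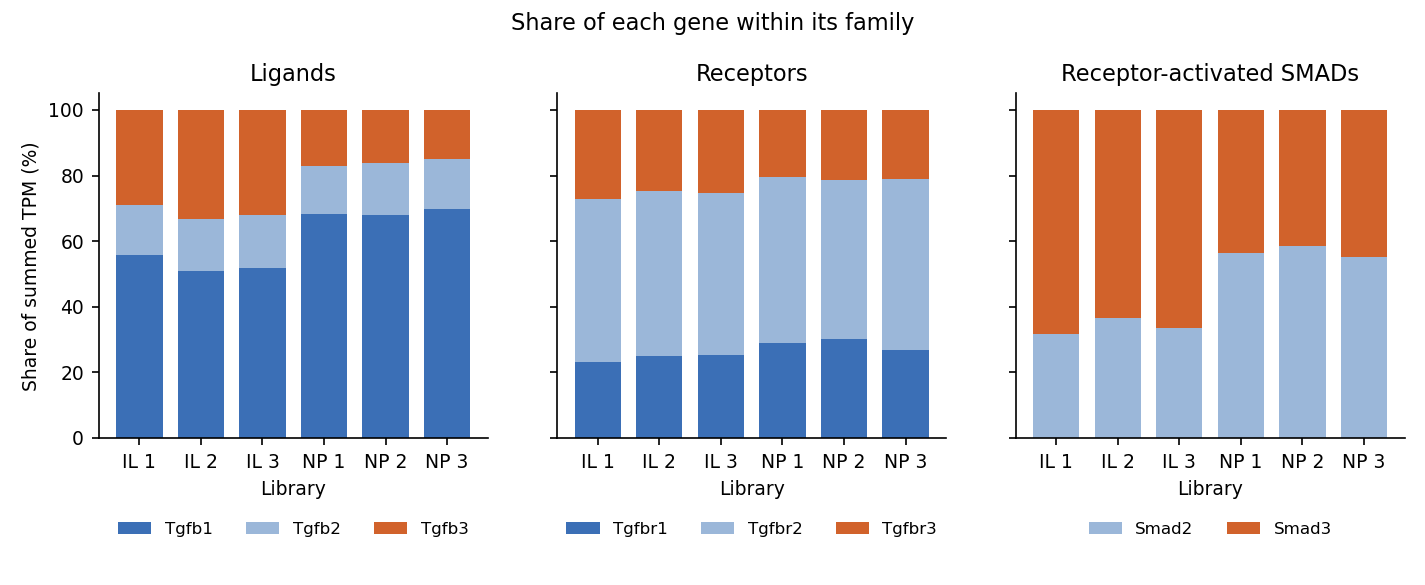
Share in percent of the summed TPM of the ligand genes, the receptor genes and the receptor-activated SMAD genes taken by each gene, 1 bar per library, with IL for IL-1β and NP for IL-1β plus NP-G2-044. Tgfb3 shrinks from a mean of 31.5% to 16.1% of ligand transcripts, and Smad2 grows from 34.0% to 56.6% of the sum of Smad2 and Smad3.

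All 3 receptor genes were lower with the inhibitor, and the co-receptor gene had the largest change. Tgfbr3 (gene 21814, chromosome 5, 107106570 to 107289629, minus strand) codes for betaglycan, which has no kinase of its own. Its level was 12.54, 12.47 and 11.62 TPM with IL-1β and 7.13, 6.66 and 7.02 TPM with the inhibitor. The groups were widely separated. The means were 12.2 ± 0.512 TPM and 6.94 ± 0.246 TPM (n = 3 per group, SD), a log2 fold change of -0.78 (SE 0.0545, 95% confidence interval -0.89 to -0.67, edgeR adjusted p = 9.35e-19), or 1.72-fold lower.

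Tgfbr2 (gene 21813, chromosome 9, 116084293 to 116175360, minus strand) codes for the type II receptor kinase that binds the ligand first. Its level was 22.98, 25.17 and 22.61 TPM with IL-1β and 17.53, 15.20 and 17.25 TPM with the inhibitor, where the second inhibitor library was the lowest of the 6. The groups did not overlap, and the log2 fold change was -0.47 (SE 0.0482, edgeR adjusted p = 1.01e-11), or 1.38-fold lower.

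Tgfbr1 (gene 21812, chromosome 4, 47353222 to 47414931, plus strand) codes for ALK5, the type I receptor kinase that phosphorylates SMAD2 and SMAD3. It was at 10.75, 12.57 and 11.54 TPM with IL-1β and at 10.10, 9.44 and 8.86 TPM with the inhibitor. The gap between the groups was narrow, since the lowest IL-1β library lay close to the highest inhibitor library. The log2 fold change was -0.26 (SE 0.0552, 95% confidence interval -0.37 to -0.15, edgeR adjusted p = 2.86e-05), or 1.20-fold lower.

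Summed receptor transcripts were 47.4 ± 2.43 TPM with IL-1β and 33.1 ± 1.73 TPM with the inhibitor (n = 3 per group, SD). Within that sum, Tgfbr3 went from 25.8% ± 1.18 to 21.0% ± 0.419 and Tgfbr1 from 24.5% ± 1.10 to 28.7% ± 1.74, both with groups that did not overlap (exact permutation p = 0.1, adjusted 0.125). Tgfbr2 made up 49.7% ± 0.370 and 50.4% ± 1.75, and these groups overlapped (exact permutation p = 0.7).

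The SMAD genes moved in opposite directions. Smad3 (gene 17127, chromosome 9, 63646767 to 63757994, minus strand) codes for the receptor-activated SMAD that binds DNA directly and is known to restrain hypertrophy of articular chondrocytes. It was at 19.16, 18.63 and 19.25 TPM with IL-1β and at 10.68, 9.90 and 11.17 TPM with the inhibitor. The IL-1β libraries lay close together and far above all inhibitor libraries. The means were 19.0 ± 0.335 TPM and 10.6 ± 0.640 TPM (n = 3 per group, SD), a log2 fold change of -0.81 (SE 0.0493, 95% confidence interval -0.91 to -0.71, edgeR adjusted p = 4.73e-21), or 1.75-fold lower. After Tgfb3 this was the next largest change among the 10 genes.

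Smad2 (gene 17126) codes for the other SMAD that ALK5 activates, whose main splice form does not bind DNA directly. Its level was 8.93, 10.73 and 9.75 TPM with IL-1β and 13.83, 13.89 and 13.66 TPM with the inhibitor. All 3 inhibitor libraries were above all IL-1β libraries and were nearly level with each other. The means were 9.80 ± 0.901 TPM and 13.8 ± 0.119 TPM (n = 3 per group, SD), a log2 fold change of 0.53 (SE 0.0445, 95% confidence interval 0.44 to 0.62, edgeR adjusted p = 2.08e-15), or 1.44-fold higher.

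With these changes the order of the pair turned round. The ratio of Smad3 to Smad2 in TPM was 2.15, 1.74 and 1.97 with IL-1β and 0.772, 0.713 and 0.818 with the inhibitor. Smad3 was above Smad2 in all 3 IL-1β libraries and below it in all 3 inhibitor libraries. Smad2 took 34.0% ± 2.40 of their sum with IL-1β and 56.6% ± 1.69 with the inhibitor, a difference of 22.6 percentage points (exact permutation p = 0.1, adjusted 0.125). The sum itself went from 28.8 ± 0.655 TPM to 24.4 ± 0.533 TPM (n = 3 per group, SD).

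Smad4 (gene 17128) codes for the common partner of the receptor-activated SMADs in the TGF-β and BMP branches. It was at 19.28, 19.73 and 18.93 TPM with IL-1β and at 22.81, 22.91 and 23.61 TPM with the inhibitor. The groups did not overlap and each was tight. The log2 fold change was 0.30 (SE 0.0360, 95% confidence interval 0.22 to 0.37, edgeR adjusted p = 1.83e-10), or 1.23-fold higher.

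Smad7 (gene 17131) codes for the inhibitory SMAD that brings ubiquitin ligases to ALK5. It was at 9.52, 9.59 and 9.54 TPM with IL-1β and at 9.29, 7.78 and 8.83 TPM with the inhibitor. The inhibitor libraries were spread, and the highest of them came close to the IL-1β libraries without reaching them. The log2 fold change was -0.19 (SE 0.0700, 95% confidence interval -0.33 to -0.05, edgeR adjusted p = 0.0106), the smallest of the 10. Without the second inhibitor library the change was -0.12 and the adjusted p from edgeR 0.132, and limma on log2(TPM + 1) gave -0.13 with an adjusted p of 0.0993, so this call depended on 1 library and on the scale.

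**Figure D3:**
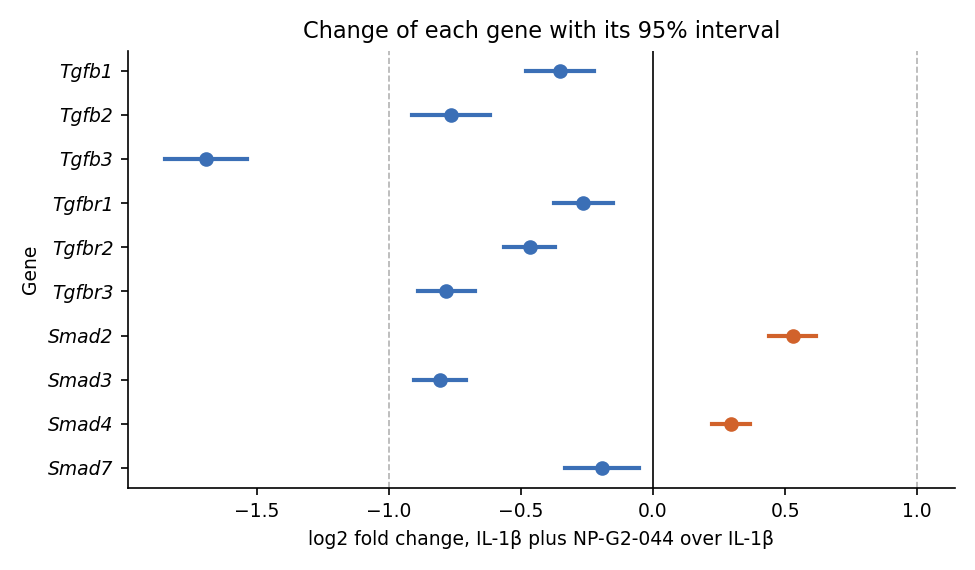
The log2 fold change of each gene, with against without NP-G2-044, from edgeR, with its 95% confidence interval as a horizontal line; blue marks genes lower with the inhibitor, orange genes higher, and dashed lines the cutoff of 1. Tgfb3 at -1.69 is the only gene past the cutoff, and Smad2 at 0.53 and Smad4 at 0.30 are the only genes to the right of 0.

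The order of the levels in TPM also differed between the groups. With IL-1β, Tgfb1 and Tgfbr2 stood at the top, followed by Smad4 and Smad3, then Tgfb3, then Tgfbr3 and Tgfbr1, then Smad2 and Smad7, with Tgfb2 at the bottom. Within each of these pairs the ranges of the 3 libraries overlapped, so the order inside a pair was not resolved. With the inhibitor, Smad4 stood at the top, followed by Tgfb1, Tgfbr2 and Smad2, none of whose ranges overlapped with the next. Smad3, Tgfbr1 and Smad7 came after them with ranges that overlapped from each to the next, then Tgfbr3, and Tgfb3 and Tgfb2 shared the lowest place.

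The sources do not say if strand was used in counting, so reads from opposite strands may have been pooled. Tgfb3 exons share 163 bases (4.82% of its exon bases) with Gm37804 and 257 bases (7.60%) with Gm48008, both on the opposite strand. The antisense gene Gm29491 shares 124 bases (2.14%) with Tgfb2 exons, and Gm43422 lies over 297 bases (4.54%) of Tgfbr3 exons on the same strand. The part of these overlaps in the counts of the 3 genes was not tested.

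The other genes of the pathway were read from 7 lists grouped by role. A few genes stand in more than 1 list, and those named here because a count is small, outside the naming rule, were picked after their values were seen. Each count of called genes is to be set against 40.2% higher and 39.8% lower among all genes tested, and each median log2 change against 0.00.

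The 23 genes of latency and activation were all listed and 18 were tested, of which 15 fell, 2 rose and only Ltbp1 did not pass, with a median log2 fold change of -0.53. The largest falls were in Thbs1 and Thbs2, matricellular thrombospondins, of which the first is known to activate latent TGF-β. Thbs1 went from 190.9 ± 11.9 TPM to 7.47 ± 0.241 TPM (log2 -4.64, edgeR adjusted p = 4.67e-52) and Thbs2 from 103 ± 4.87 TPM to 6.05 ± 0.117 TPM (n = 3 per group, SD, log2 -4.06). The latent TGF-β-binding proteins, which tether the latent complex to the matrix, differed among themselves. Ltbp2, the family member that does not bind latent TGF-β, went from 16.1 to 1.01 TPM (log2 -3.96, SE 0.0750) and Ltbp3 from 62.5 to 17.2 TPM (log2 -1.85, SE 0.0375). Ltbp1 was at 101 ± 7.05 TPM and 96.4 ± 4.16 TPM with overlapping groups (log2 -0.04, edgeR adjusted p = 0.289), and without the first IL-1β library its change of -0.09 had an adjusted p of 0.00356 in the same test. The genes that rose were Ltbp4 (log2 0.19) and the integrin gene Itgb3, which was under 1 TPM in both groups. Members of this list past both cutoffs numbered 6 lower and 1 higher, against 10.1% lower and 6.48% higher among all genes tested.

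Of 13 genes for extracellular inhibitors and accessory receptors, 9 were tested, of which 7 fell and 2 rose, with a median log2 fold change of -1.15. Bgn and Dcn, small proteoglycans that bind TGF-β, went from 2141 ± 49.3 TPM to 700.1 ± 19.8 TPM (log2 -1.58) and from 3.83 to 1.05 TPM (log2 -1.81, SE 0.213). The Dcn values rest on 195 reads in all with IL-1β and 58 with the inhibitor. The study lists DCN among the genes raised by the inhibitor in its RNA-seq, the opposite direction. It also reports more DCN with the inhibitor by immunoblot, in chondrocytes given IL-1β and in human osteoarthritic chondrocytes. Protein and those cells were not examined here. Cd109, a membrane-anchored TGF-β co-receptor that dampens the signal, went from 14.4 to 4.79 TPM (log2 -1.55, SE 0.0587). Eng codes for endoglin, the accessory receptor tied to ALK1, and went from 3.15 ± 0.264 TPM to 1.16 ± 0.0839 TPM (n = 3 per group, SD, log2 -1.41, edgeR adjusted p = 1.27e-12). The 2 that rose were Tgfbrap1, a receptor-associated adaptor, and Htra1, a secreted protease, with log2 changes of 0.59 and 0.21.

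Activins use their own receptors and the same SMAD2 and SMAD3. Of the 15 genes of that branch 11 were listed and 9 tested, of which 5 fell and 3 rose, with a median log2 fold change of -0.21. Inhba, which codes for the activin A subunit, rose from 16.0 ± 0.221 TPM to 35.0 ± 0.422 TPM (n = 3 per group, SD, log2 1.15, edgeR adjusted p = 1.28e-33). Fstl1, a secreted follistatin-like glycoprotein, fell from 173 to 55.5 TPM (log2 -1.61) and Acvr2b, an activin type II receptor gene, from 2.90 to 1.68 TPM (log2 -0.74). Acvr1b, which codes for the activin type I receptor ALK4, was at 10.6 and 9.95 TPM (log2 -0.06, edgeR adjusted p = 0.367). Inhbe, Mstn, Nodal and Acvr1c were not analysed here.

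The 28 intracellular regulators of receptors and SMADs leaned the other way. Of the 27 tested, 16 rose, 7 fell and 4 (Itch, Stub1, Skil and Crebbp) did not pass, with a median log2 fold change of 0.14. Smurf1 and Smurf2 code for the ubiquitin ligases that act on TGF-β and BMP receptors and SMADs, and they moved by unequal amounts. Smurf1 was at 29.25, 29.13 and 29.13 TPM with IL-1β and at 120.85, 119.68 and 116.00 TPM with the inhibitor, a log2 fold change of 2.06 (SE 0.0312, edgeR adjusted p = 2.59e-48). Smurf2 was at 61.4 ± 0.568 TPM and 63.9 ± 0.728 TPM (n = 3 per group, SD), a log2 fold change of 0.09 (edgeR adjusted p = 0.00500) that missed the threshold by limma on log2(TPM + 1), with an adjusted p of 0.114. Usp11, a deubiquitinase reported to act on ALK5, rose from 32.2 to 109 TPM (log2 1.79), and the ligase gene Nedd4l and the SMAD anchor gene Zfyve9 were also past both cutoffs, with log2 changes of 1.26 and 1.11. Dab2, an endocytic adaptor that binds TGF-β receptors, fell from 18.1 to 3.71 TPM (log2 -2.26), and Cav1, the caveolae protein, had a log2 change of -1.27. The corepressor genes Ski and Skil had log2 changes of -0.42 and -0.07, of which the second did not pass (edgeR adjusted p = 0.115). Without the first IL-1β library Skil was at -0.12 (edgeR adjusted p = 0.00856) and without the first inhibitor library at -0.10 (0.0488), so that this call depended on single libraries. Pmepa1, a target and feedback inhibitor of the pathway, fell from 25.7 to 19.3 TPM (log2 -0.38).

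TGF-β receptors also signal to the kinase TAK1, which IL-1β uses too. Of the 7 genes of that branch 4 rose and 2 fell, with a median log2 fold change of 0.30 and none past both cutoffs. Tab2, an adaptor of TAK1, rose from 93.2 to 166 TPM (log2 0.87), and Traf4, which joins TGF-β receptors to TAK1, rose from 25.3 to 38.0 TPM (log2 0.62). Xiap, a ubiquitin ligase that binds the TAK1 complex, fell from 40.7 to 27.0 TPM (log2 -0.56), and Map3k7, the gene of TAK1 itself, did not pass (log2 0.06).

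The remaining SMADs belong mainly to the BMP and ALK1 branch, and of its 5 genes the ALK1 gene Acvrl1 was not analysed here. Smad1 was at 33.92, 31.45 and 31.61 TPM with IL-1β and at 51.38, 51.56 and 52.31 TPM with the inhibitor, a log2 fold change of 0.71 (SE 0.0411, edgeR adjusted p = 4.83e-22). Smad5 fell from 56.2 ± 1.61 TPM to 47.7 ± 1.17 TPM (n = 3 per group, SD, log2 -0.17) and Smad9 from 20.9 to 16.8 TPM (log2 -0.29). The SMAD genes that the receptors activate thus split in both branches, with Smad2 and Smad1 higher and Smad3, Smad5 and Smad9 lower. The inhibitory SMADs both fell, Smad6, which acts mainly on the BMP branch, from 31.1 ± 1.14 TPM to 9.88 ± 0.177 TPM (n = 3 per group, SD, log2 -1.62, edgeR adjusted p = 2.19e-31) and Smad7 by the small amount given above.

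Of 31 genes known to respond to TGF-β in other cells, 26 were tested, of which 19 fell, 6 rose and Skil did not pass, with a median log2 fold change of -1.32. Past both cutoffs were 16 lower and 3 higher genes, against 10.1% lower and 6.48% higher among all genes tested. Tgfbi, a matrix protein gene named for its induction by TGF-β, was at 70.17, 61.90 and 63.23 TPM with IL-1β and at 2.30, 2.89 and 2.42 TPM with the inhibitor, a log2 fold change of -4.65 (SE 0.0794, edgeR adjusted p = 2.64e-31). Igfbp3, which binds insulin-like growth factors, fell from 965 to 9.24 TPM (log2 -6.67). Ccn2 codes for connective tissue growth factor and was low in both groups, at 1.64 ± 0.518 TPM and 0.400 ± 0.0656 TPM (n = 3 per group, SD, log2 -1.99, edgeR adjusted p = 1.04e-08). Among the genes that rose were Fn1, Junb, Bhlhe40, Snai2 and Cdkn1a, with the last 3 past both cutoffs.

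**Figure D4:**
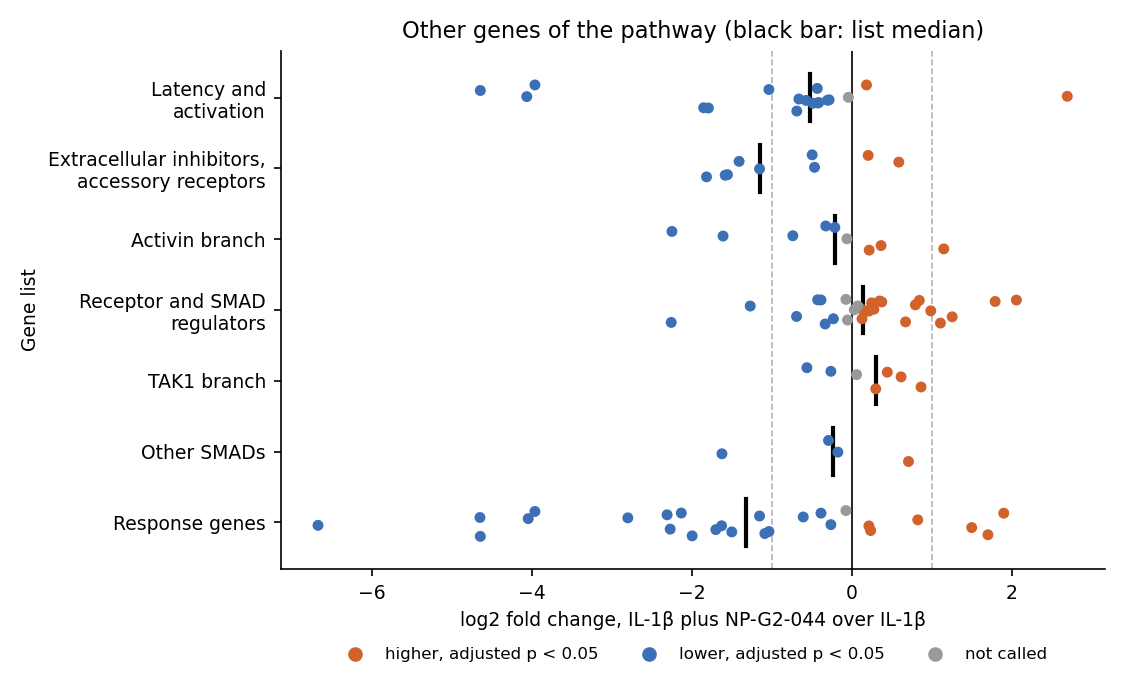
The log2 fold change, with against without NP-G2-044, of each tested gene in 7 lists around the core pathway; orange and blue mark genes higher and lower at an adjusted p below 0.05, grey genes not called, black bars the list medians and dashed lines the cutoff of 1. The median is lowest for the response genes at -1.32 and the extracellular inhibitors and accessory receptors at -1.15. It is above 0 for the regulators of receptors and SMADs at 0.14 and the TAK1 branch at 0.30.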

How the data were processed

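RNA-seq of 6 libraries, 3 per group by their labels, was analysed from the deposited table. The kit was Illumina TruSeq RNA, and the submitters' processing notes name cutadapt, HISAT2 2.0, StringTie and mm10 without their roles. The authors deposited expected counts per gene, with FPKM and TPM values scaled by the authors for gene length and depth. The methods describe 3 biological replicates per group. In each library 10.2% to 11.1% of the 16880 counts were not whole, and counts were rounded. Genes were kept by filterByExpr (minimum count 10), scaled by TMM and tested with edgeR 4.0.16 in R 4.3.3 (quasi-likelihood, robust, Benjamini-Hochberg over 11983 genes), with a threshold of 0.05 and a log2 cutoff of 1. The standard error is the log2 change divided by the root of F. Shares of summed TPM were compared by exact two-sided permutation tests. The common biological coefficient of variation was 2.33%. The edgeR p-values measure differences against this small spread among the libraries of a group. The sample titles do not say whether those libraries came from separate experiments, so a spread between experiments may not be covered. The script was tested on simulated counts with few changed genes, as many up as down. In the real contrast 80% of the genes tested were called, so that test does not cover scaling or error rates here. The 10 genes, the lists and the tests were chosen with earlier results of these data known. Named genes were the 10 genes, up to 3 genes per list with the largest change among called genes with no overlap and at least 1 TPM, 16 genes of set interest whatever their result, and the 3 genes nearest to Tgfb3. The result of 1 named gene is not reported here. Gene positions come from an annotation of GRCm38, the assembly of mm10. Alternatives used DESeq2 1.42.0, limma 3.58.1 with a pseudocount of 1 or 0.1 TPM, other scalings and filters, a test against a 1.5-fold change, the replicate number as a block, and each library left out.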

Additional observations from a re-analysis of the deposited data

How the results depend on the processing

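The 40 named genes of the pathway that were tested, without the 3 genes nearest to Tgfb3, kept their direction in all 637 values over the alternatives, of which 615 also stayed on the same side of the threshold. Against a 1.5-fold change, 4 of the 10 genes (Tgfb2, Tgfb3, Tgfbr3 and Smad3) were called lower and 0 higher. The same test left 7 lower and 1 higher in latency and activation, and 0 higher among extracellular inhibitors and accessory receptors. It left 3 lower and 1 higher in the activin branch, and 2 lower and 8 higher among regulators. In the TAK1 branch it left 0 lower and 1 higher, and among the other SMADs 1 lower. With at least 10 CPM in 3 libraries, latency and activation had 1 higher, since fewer genes were tested. For the same reason the extracellular inhibitors and accessory receptors had 4 lower. The Tgfb2 share of ligand transcripts was 1.39 percentage points higher with read counts (exact permutation p = 0.2), and the difference in the Tgfbr2 share of receptor transcripts was -0.234 points without the third inhibitor library (exact permutation p = 0.8); for both the cause was not tested. Leaving out each library in turn gave 7 to 8 of the 10 genes lower, 2 higher and 1 past both cutoffs, with log2 changes of -1.73 to -1.66 for Tgfb3, -0.40 to -0.29 for Tgfb1, -0.85 to -0.76 for Smad3 and 0.47 to 0.59 for Smad2. Skil was also called with at least 10 CPM in 3 libraries (edgeR adjusted p = 0.0307). Deviations of libraries with the same replicate number correlated at -0.0934, -0.0236 and 0.0259, and those with different numbers at -0.107 to 0.129. With 3 libraries a group, these values cannot settle whether the libraries were paired. With the replicate number as a block 8 genes were lower and 2 higher, Tgfb3 was at -1.69, and no call of these 40 genes changed. Depth limits the low genes most, and among the 10 genes Tgfb3 had the fewest reads with the inhibitor, 151 to 166 per library. Some named genes of the lists had fewer in those libraries, with 8 to 11 for Ccn2, 14 to 24 for Dcn and 41 to 45 for Eng.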

Other observations

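The count of a gene divided by its FPKM and by depth gives the gene length that the quantification used, which depends on the transcripts it assigned reads to. For Smad7 this length was 3770 ± 67.5 bases with IL-1β and 3559 ± 29.2 bases with the inhibitor (SD, n = 3 each), a change of -5.60% (exact permutation p = 0.1, the smallest possible, and 0.25 after adjustment over 10 genes). A lower value was seen in 2.0% of the 9486 genes with at least 100 reads, whose median was -0.261%. For the other 9 genes it lay between -0.317% and 0.194%. Computed from TPM in place of FPKM it lay between 0.0437% and 0.537% for these 9, with the sign turned for 7 of them, and stayed negative for Smad7.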
